A study of Rattus norvegicus with 2 samples.

Results

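The insulin-like growth factor (IGF) system was examined in rat C6 glioma cells through 10 of its genes, comprising 1 ligand (Igf1), 2 receptors (Igf1r and Igf2r), 1 receptor substrate (Irs1) and 6 binding proteins (Igfbp2 to Igfbp7). They are the probe sets of the deposited table whose only gene symbol in the platform annotation is one of these names. Each gene had 1 probe set, so 10 of the 18166 genes with a symbol were described, and no probe set shared by several symbols held any of them. The genes were selected on their measured SMiG minus C6 differences, which were already known, so the differences below are a description and were not tested.

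SMiG cells are C6 glioma cells treated with small molecules, and they are set against undifferentiated C6 cells. C6 is an established rat glioma line, and per the labels both were grown in DMEM with 10% fetal bovine serum. The labels give the treatment in 2 ways. The SMiG sample's own description names 3 agents: forskolin, which activates adenylyl cyclase, rapamycin, which blocks mTORC1, and I-BET151, which blocks BET bromodomains. The protocol given with either sample instead lists the GSK3 blocker CHIR99021 (20 µM) and forskolin (100 µM), applied for 35 days. Neither text was preferred here. Each group is 1 array, so there is no replicate error, no test and no p-value for any difference, and the number of arrays limits the precision.

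IGF1 and IGF2 are secreted peptides that signal mainly through the receptor tyrosine kinase IGF1R, which passes the signal to docking proteins such as IRS1 and on to PI3K, AKT and mTORC1. IGF2R is a sorting and clearance receptor without a kinase. The IGF binding proteins hold the ligands outside the cell, shield them from the receptors or release them when cut by proteases, and IGFBP3 and IGFBP5 also bind matrix and heparin-like chains. IGF1R signalling and several binding proteins have been studied widely in glioma. The arrays measured RNA, not secreted or bound protein.

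All values are deposited expression values on a log2 scale, and a difference is SMiG minus C6 on that scale. A detection floor was set on each array at the 95th percentile of 1344 olfactory and vomeronasal receptor genes, which glioma cells are not known to use. The floor was 4.96 for SMiG and 4.86 for C6, and a gene above it on at least 1 array counts as detected. Where the dimmer array is at or below its floor, the fold is the brighter value against that floor and is written as at least that fold. Across these receptor genes the SD of the difference was 0.32, and 0.818% (11 genes) were past 2-fold. Levels of different genes come from different probes and are not set against each other.

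Of the 6 binding protein genes 3 were lower in SMiG cells, whereas the ligand gene and the gene of its signalling receptor were higher. Of the 10 genes, 9 were detected and 7 were above the floor on both arrays. Igfbp5, Igfbp3 and Igfbp4 passed 2-fold downward in SMiG, and Igf1 and Igf1r passed it upward. That is 3 of 9 lower (33.3%) and 2 of 9 higher (22.2%), beside 6.53% and 3.20% of the 10903 detected genes. These shares follow from how the genes were picked. Measured values of the same 3 genes were at least 4-fold lower, beside 1.30% of the detected genes. Igf1 passed 4-fold upward only by its measured C6 value, which lies below the floor, beside 0.367% of the detected genes counted in the same way. The median difference of the 9 was −0.22, beside −0.0040 for all detected genes. Igf1 was detected through SMiG alone and Igfbp5 through C6 alone.

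**Figure D1:**
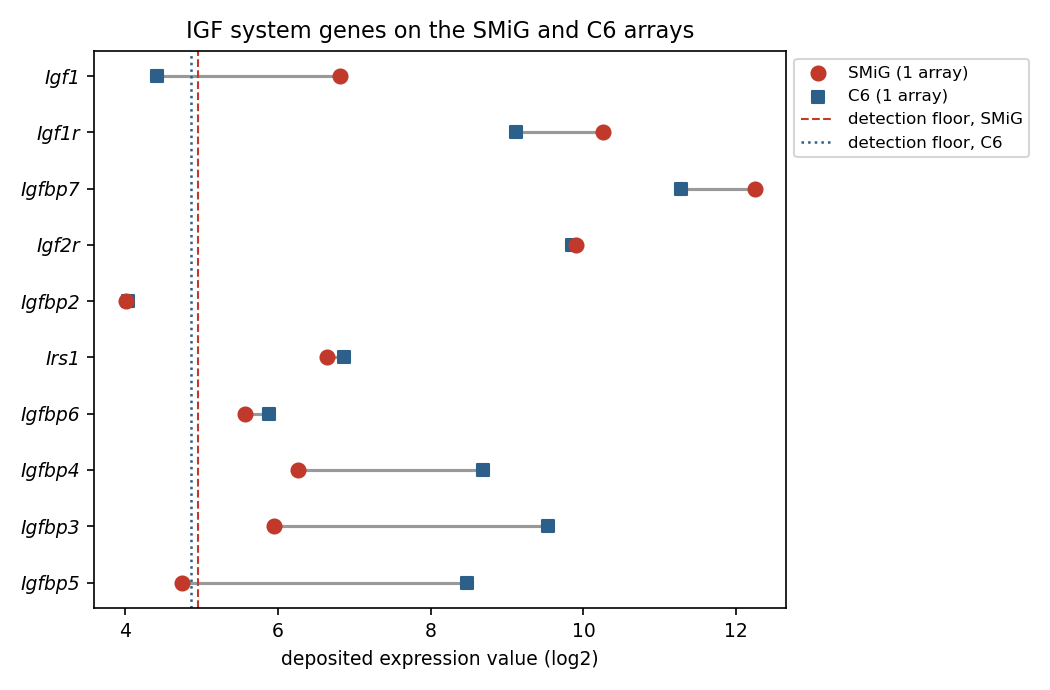
Deposited log2 value (horizontal axis) of each of the 10 genes on the SMiG array (red circles) and the C6 array (blue squares), 1 array each, with the detection floors as a dashed red line (SMiG) and a dotted blue line (C6). Igf1 at 4.42 lies below the floor in C6, Igfbp5 at 4.74 lies below it in SMiG, and Igfbp2 lies below it on both.

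Igf1, the ligand, stood at 6.81 in SMiG cells and at 4.42 in C6 cells, a measured difference of 2.39. The C6 value is below the floor, so Igf1 was at least 3.86-fold higher in SMiG. The insulin gene Ins2 (5.48 in SMiG and 5.16 in C6) did not reach 2-fold. Ins1 and the second ligand gene Igf2, at 4.03 in SMiG and 3.83 in C6, were below the floor on both arrays.

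Igf1r, the receptor for IGF1, stood at 10.26 in SMiG cells and at 9.12 in C6 cells, which makes it 2.21-fold higher. Of the detected genes, 2.24% had a difference as high or higher. Its close relative Insr, the insulin receptor gene, lay on the other side, at 6.31 in SMiG and 7.30 in C6, which at −0.98 is just short of 2-fold. Insrr, the insulin receptor-related receptor gene, was below the floor on both arrays. Igf2r, which takes up IGF2 and carries mannose 6-phosphate tagged enzymes to lysosomes, stood at 9.91 in SMiG and 9.85 in C6. Its difference of 0.06 is well inside the SD of the receptor genes.

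Irs1, the docking protein gene, stood at 6.65 in SMiG and 6.87 in C6 (difference −0.22). Irs2, its relative, stood at 8.83 in SMiG and 8.06 in C6 (difference 0.77). Irs3, a docking protein gene of rodents, stood at 5.82 in SMiG and 5.43 in C6. None of the 3 reached 2-fold. Dok4, another docking protein gene, was below the floor on both arrays. The docking protein gene Dok5 had the largest difference among the relatives, at 4.75 in SMiG and 8.37 in C6, at least 10.6-fold lower.

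Igfbp5 and Igfbp3 had the lowest differences of the 10 genes. Igfbp5, whose protein binds matrix and both IGFs, stood at 4.74 in SMiG cells and at 8.47 in C6 cells. The SMiG value is below the floor, so Igfbp5 was at least 11.4-fold lower in SMiG. Igfbp3, which encodes the main IGF carrier of blood, stood at 5.94 in SMiG cells and at 9.53 in C6 cells, 12.1-fold lower and above the floor on both arrays. Of the detected genes, 21 (0.193%) had a measured difference as low as that of Igfbp3 or lower. The order of the 2 genes is not settled, because the Igfbp5 fold is a bound.

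Igfbp4, whose protein mostly restrains IGF action until the protease PAPP-A cuts it, stood at 6.27 in SMiG cells and at 8.68 in C6 cells, 5.33-fold lower. Of the detected genes, 0.752% had a difference as low or lower. The differences of Igfbp3 and Igfbp4, on which these genes were picked, were 11.2 and 7.51 times the SD of the receptor genes. That SD is a spread between the arrays that holds no variation between cultures of one kind. Of the 1344 receptor genes only 79 were detected, so it comes mostly from values below the floor. Igfbp3 and Igfbp4 lay above the floor on both arrays.

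None of Igfbp6, Igfbp2 and Igfbp7 was 2-fold lower. Igfbp6, whose protein prefers IGF2, stood at 5.57 in SMiG and 5.88 in C6, and its difference of −0.31 is within the SD of the receptor genes. Igfbp2, the binding protein often studied in glioma, was below the floor at 4.01 in SMiG and 4.04 in C6, so no fold is given. Igfbp7 lay on the opposite side from Igfbp3, Igfbp4 and Igfbp5, at 12.24 in SMiG and 11.28 in C6. Its protein binds IGFs only weakly and is often counted as a binding protein relative. At 1.95-fold higher Igfbp7 falls just short of 2-fold, and Igf1r at 2.21-fold just passes it. Of the remaining relatives, Igfbpl1 at 5.29 in SMiG and 5.16 in C6 and Igfbp1 below the floor on both arrays, did not reach 2-fold. Igfals, the gene of the subunit that completes the circulating complex of IGFBP3 or IGFBP5, was below the floor on both arrays.

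**Figure D2:**
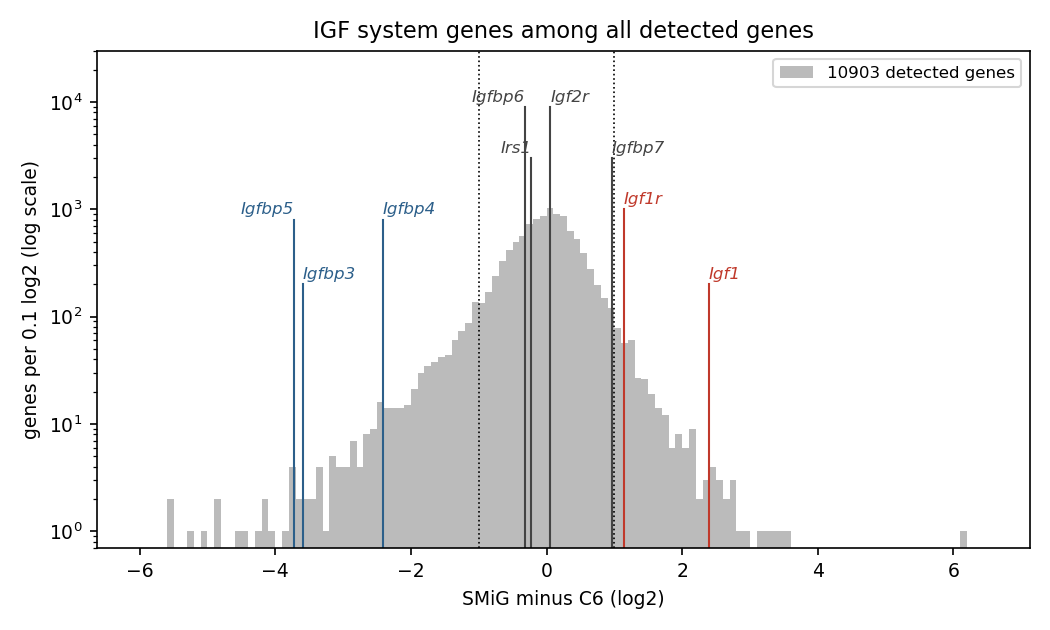
Number of detected genes per 0.1 log2 of the SMiG minus C6 difference (grey bars, log vertical axis, 10903 genes), with the 9 detected IGF system genes marked by lines (blue, at least 2-fold lower in SMiG; red, at least 2-fold higher; dark grey, within 2-fold; dotted lines, 2-fold). Line heights only separate the labels. Igfbp5 and Igfbp3 lie in the far left tail and Igf1 in the right tail, while Igf2r, Irs1 and Igfbp6 lie near the centre.

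The genomic neighbours of Igfbp5 and Igfbp3 were below the floor. In the gene order of the GRCr8 assembly, Igfbp2 and Igfbp5 are neighbouring protein-coding genes on chromosome 9, and Igfbp1 and Igfbp3 on chromosome 14. In each pair the partner of the lowered gene was below the floor on both arrays, Igfbp2 as above and Igfbp1 at 4.59 in SMiG and 4.38 in C6. On their other sides Tnp1 and Mospd1l1 were also below it on both. Igfbp4 lies next to Top2a, the topoisomerase gene of dividing cells, which stood at 10.19 in SMiG and 10.49 in C6.

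The 250 bases before the start of the 3 binding protein genes that were at least 2-fold lower are shown because these genes differed in the same direction. The sequences are from RefSeq (GRCr8), read 5′ to 3′ on the gene's strand. That of Igfbp5 is chr9:81914188-81914437 (minus strand), that of Igfbp3 is chr14:86277945-86278194 (minus strand) and that of Igfbp4 is chr10:84491221-84491470 (plus strand). Capitals mark matches to any of 10 short motifs on either strand.
Igfbp5: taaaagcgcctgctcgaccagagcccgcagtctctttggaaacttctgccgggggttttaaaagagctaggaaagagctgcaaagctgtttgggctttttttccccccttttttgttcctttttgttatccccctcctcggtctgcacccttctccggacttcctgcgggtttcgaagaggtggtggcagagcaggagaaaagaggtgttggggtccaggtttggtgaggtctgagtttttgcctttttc
Igfbp3: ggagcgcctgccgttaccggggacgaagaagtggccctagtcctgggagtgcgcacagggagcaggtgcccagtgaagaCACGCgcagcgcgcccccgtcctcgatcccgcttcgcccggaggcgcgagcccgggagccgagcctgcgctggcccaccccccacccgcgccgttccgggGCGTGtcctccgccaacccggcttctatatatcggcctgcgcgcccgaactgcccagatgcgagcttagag
Igfbp4: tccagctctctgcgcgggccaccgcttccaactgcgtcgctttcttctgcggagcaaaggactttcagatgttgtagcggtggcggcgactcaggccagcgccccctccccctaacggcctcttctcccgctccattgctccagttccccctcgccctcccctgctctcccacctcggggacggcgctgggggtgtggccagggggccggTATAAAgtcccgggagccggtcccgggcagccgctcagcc

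Capitals in Igfbp3 are the hypoxia response core GCGTG or its complement, found 2 times, and those in Igfbp4 are the TATA box TATAAA. The sequence of Igfbp5 held no match to any of the 10 motifs. GCGTG occurs in 25.9% and TATAAA in 12.9% of 33469 rat promoter windows of this length. The full cAMP response element TGACGTCA (1.59% of windows) was absent from all 10 windows, and so were the amino acid response element TGATGNAA (3.40%) and the TCF and LEF site ATCAAAG (3.15%). The shorter cAMP element core TGACG (18.2%) was found in Igf2r only, and the FOXO site GTAAACA (3.21%) in Igfbp6 only. The core ACGTG (16.6%) was found in 4 windows and the E-box CACGTG (5.59%), which contains it, in 3 of those. The GC box GGGCGG (30.5%) was found in 5 windows. The window of Igf1 held none of the 10 motifs. No motif was matched in more than 1 of the 3 lowered genes. Their windows had a GC content of 51.6% for Igfbp5, 71.6% for Igfbp3 and 68.8% for Igfbp4, beside a median of 51.2% over all windows. A match is a string of letters and not a bound site, and its absence concerns these windows only.

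Among genes of enzymes that cut binding proteins, and of the inhibitors of those enzymes, those past 2-fold were lower in SMiG. Of 25 listed genes, 14 were detected, and 5 (35.7%) passed 2-fold downward in SMiG and 0 upward, beside 6.53% and 3.20% of all detected genes. The median difference was −0.46, beside −0.0040 for all detected genes. The complement protease genes C1r and C1s, of which the human C1s protein is known to cut IGFBP5, were both lower. C1r stood at 5.73 in SMiG and 8.80 in C6, 8.40-fold lower, and C1s, at 4.45 in SMiG and 6.13 in C6, was at least 2.25-fold lower. Adamts1, a matrix protease gene, was 3.52-fold lower and Prss23, a serine protease gene, 3.33-fold lower. Stc1, the stanniocalcin gene whose protein inhibits PAPP-A, was 3.23-fold lower, and its relative Stc2 had a difference of −0.12. Pappa and Pappa2, the genes of the proteases themselves, were below the floor on both arrays. Of the 14 detected genes, 10 had a negative and 4 a positive difference. The 4 positive ones were short of 2-fold, with Ctsd (cathepsin D, 11.17 in SMiG and 10.17 in C6) just under the threshold. The others were Adam9 at 0.86, Bmp1 at 0.74 and Htra1 at 0.66. Negative differences short of 2-fold included Mmp19 at −0.67, Adam12 at −0.48 and Plat at −0.44.

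Of 18 listed partners of the binding proteins at the cell surface and in the matrix, 15 had a probe set and 13 were detected. Of the 13, 3 (23.1%) passed 2-fold downward and 1 (7.69%) upward, beside 6.53% and 3.20% of all detected genes. Cd93, a surface lectin-like receptor gene, was below the floor in SMiG (4.31) against 7.90 in C6, at least 7.71-fold lower. Sdc1, a heparan sulfate proteoglycan gene, was 3.54-fold lower and the integrin gene Itga5 2.17-fold lower. Fzd8, a Wnt receptor gene, was 2.67-fold higher, at 7.32 in SMiG and 5.91 in C6. Tmem219, whose human protein is described as an IGFBP3 receptor, stood at 6.68 in SMiG and 6.71 in C6.

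The mannose 6-phosphate route that IGF2R serves had 18 detected genes of 19 and a median difference of 0.14. Of these, 2 (11.1%) were past 2-fold upward in SMiG and 1 (5.56%) downward, beside 3.20% and 6.53% of all detected genes. The sorting nexin gene Snx1 was 2.34-fold higher and the sorting receptor gene Sort1 2.02-fold higher. M6pr, the second mannose 6-phosphate receptor gene, stood at 8.70 in SMiG and 7.80 in C6 (difference 0.90). Plaur, the urokinase receptor gene, was 2.58-fold lower.

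Among adaptors and negative regulators of the receptors, 36 of 39 listed genes had a probe set. The 34 detected genes had a median difference of −0.14. Of these, 4 (11.8%) passed 2-fold downward in SMiG and 0 upward, beside 6.53% and 3.20% of all detected genes. Enpp1, whose human protein can inhibit the insulin receptor, stood at 9.40 in SMiG and 11.32 in C6, 3.79-fold lower. Socs2, a feedback inhibitor of growth hormone signalling, was 3.44-fold lower, at 5.55 in SMiG and 7.33 in C6. Grb14, an adaptor that inhibits the insulin receptor kinase, was 2.55-fold lower and the docking protein gene Dok1 2.05-fold lower. Other negative regulator genes, all short of 2-fold, lay on both sides of 0. Ptpn1, a tyrosine phosphatase gene, was at 0.68 and Socs3, a relative of Socs2, at 0.43. Mdm2 was at −0.997, just under the threshold, and Socs1 at −0.59. Of the 34 detected genes, 23 had a negative and 11 a positive difference. Grb10, the relative of Grb14, was below the floor on both arrays.

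Of 27 detected genes of PI3K, AKT and mTORC1, 1 passed 2-fold downward and 1 upward (3.70% each), shares near the 6.53% and 3.20% of all detected genes. Eif4ebp1, the gene of a translation repressor that mTORC1 controls, stood at 8.08 in SMiG and 10.27 in C6, 4.58-fold lower, and its relative Eif4ebp2 at 8.96 in SMiG and 7.93 in C6, 2.05-fold higher. The regulatory subunit genes Pik3r1 and Pik3r3 had differences of 0.98 and 0.97, and Akt1 of 0.05. Of 24 detected FOXO factors and genes commonly described as FOXO targets, 16 had a positive and 8 a negative difference, and the median was 0.28. Of these, 2 (8.33%) were past 2-fold upward and 1 (4.17%) downward, beside 3.20% and 6.53% of all detected genes. Upward were Igf1r itself, one of the 10 picked genes, and Sod2 (mitochondrial superoxide dismutase, 2.08-fold higher). The upward share therefore follows in part from how the 10 genes were picked. Downward was Trib2 (just past the threshold, at 5.55 in SMiG and 6.55 in C6), and Foxo1 had a difference of 0.90. Insr and Pdk4, each at −0.98, were just short of 2-fold downward, and Pdk4 was below the floor in SMiG.

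Of 8 detected genes of the growth hormone axis and the control of Igf1 transcription, 1 (12.5%) was past 2-fold downward and 0 upward, beside 6.53% and 3.20% of all detected genes. Runx2, a transcription factor gene of bone, was 2.87-fold lower, at 7.70 in SMiG and 9.22 in C6. Ghr, the growth hormone receptor gene, lay under the floors of both arrays, and Jak2, the kinase it uses, had a difference of 0.70. None of the 4 detected genes for proteins that bind Igf mRNAs or RNAs more widely was past 2-fold, with Igf2bp2 at −0.84 the farthest from 0 and Igf2bp1 next at 0.09.

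**Figure D3:**
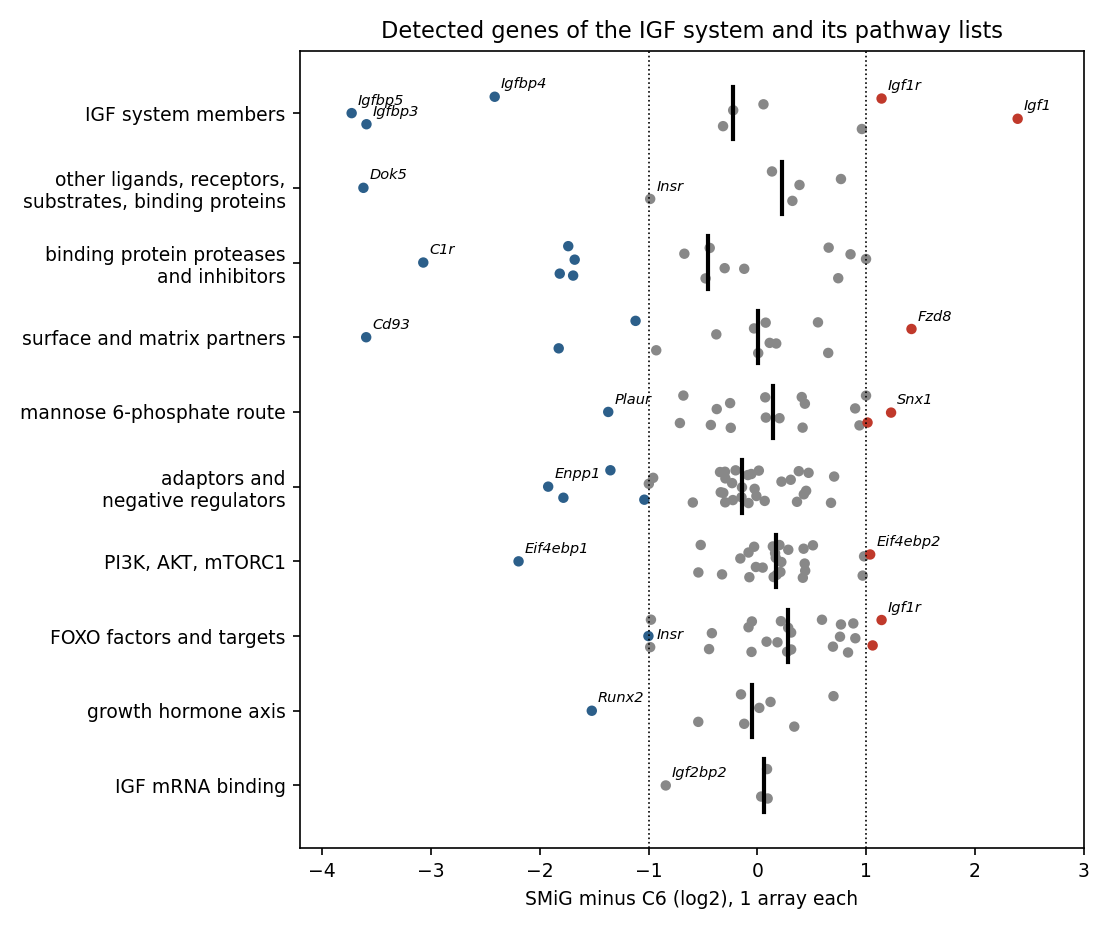
SMiG minus C6 difference on the log2 scale (horizontal axis) of every detected gene in the IGF system and in 9 related gene lists, 1 array per group (blue, at least 2-fold lower in SMiG; red, at least 2-fold higher; grey, within 2-fold; black bars, medians; dotted lines, 2-fold). Vertical scatter only separates the points. The list medians run from −0.46 for proteases and inhibitors to 0.28 for FOXO genes.

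Among the other detected genes, those nearest to Igfbp5 in difference over the 2 arrays were Car12 at −3.73 and Cth at −3.74, and those nearest to Igf1 were Scrg1 and Mir503, both at 2.41. Each of these 4 was below the floor on 1 array, at 4.31 for Car12 and 4.69 for Cth in SMiG and at 2.90 for Scrg1 and 4.66 for Mir503 in C6. Their differences and the order of nearness therefore rest on values below background, and with 1 array per group the likeness covers a single difference only.

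The arrays carried glial markers, and many markers of other cell types were below the floor. S100b (10.87 in SMiG and 9.67 in C6), Vim (12.74 in both) and Nes (8.59 in SMiG and 8.74 in C6) were above it, and Gfap, the astrocyte filament gene, was only slightly above at 5.48 in SMiG and 6.04 in C6. Of the glial markers, 11 of 13 with a probe set were detected, Cnp, S100b, Sox2 and Sox10 were 2.87, 2.30, 2.24 and 2.02-fold higher (36.4%, beside 3.20% of all detected genes), and Pdgfra was 2.24-fold lower (9.09%, beside 6.53%). Among markers of fibroblasts and mural cells, 7 of 11 with a probe set were detected. The log2 of the summed signal of all 11 was 9.95 in SMiG and 10.39 in C6. Genes with a high signal weigh most in this sum, among them Cspg4 at 9.12 in SMiG and 8.70 in C6. Pdgfrb (6.22 in SMiG and 8.59 in C6) and Col1a1 (7.25 in SMiG and 8.40 in C6) were lower in the same direction as Igfbp3, Igfbp4 and Igfbp5, which is 28.6% of the 7, beside 6.53% of all detected genes. Rgs5 at 0.58, Cspg4 at 0.42 and Col3a1 at 0.15 had positive differences, and Cspg4 is also on the glial list. Myh11 at −0.34 and Col1a2 at −0.30 had negative differences short of 2-fold. Dcn, Lum, Tagln and Des lay under the floors of both arrays. Of the neuron markers, 6 of 12 were detected, with Gad1 4.24-fold lower (1 of 6, 16.7%) and Tubb3 below the floor. Snap25 at 0.52, Map2 at 0.21 and Syp at 0.09 had positive differences. Rbfox3 at −0.18 and Slc17a7 at −0.21, both below the floor in SMiG, had negative ones. The log2 of the summed signal of all neuron markers was 9.76 in SMiG and 10.05 in C6. Genes with a high signal weigh most in it, here Map2 (9.01 in SMiG and 8.80 in C6) and Gad1 (6.44 in SMiG and 8.52 in C6). Microglial markers summed to 8.12 in SMiG and 8.22 in C6 on the log2 scale, with 5 of 12 detected and Ptprc below the floor. None of the 5 reached 2-fold. P2ry12 at 0.87, below the floor in C6, and C1qa at 0.26 had positive differences. Tmem119 at −0.81, Cd68 at −0.69, below the floor in SMiG, and C1qc at −0.21 had negative ones. Endothelial markers summed to 7.53 in SMiG and 8.04 in C6, with 3 of 8 detected and Flt1 at least 2.83-fold lower. All of these sums include genes below the floor and so hold background signal. Each is set only against the same sum on the other array. Of the hepatocyte markers, listed because liver supplies circulating IGF1, 1 of 9 was detected, and Alb was below the floor. The part of any other cell type in the binding protein values was not tested. In RNA from a whole culture, fewer cells of a type and less RNA per cell cannot be told apart.

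**Figure D4:**
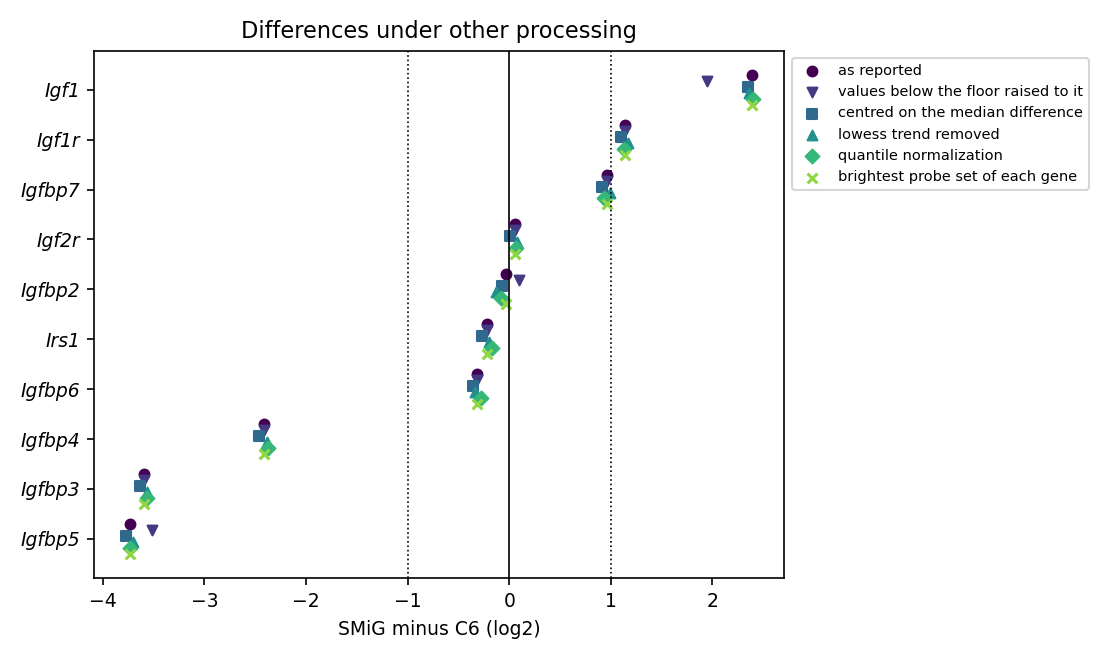
SMiG minus C6 difference on the log2 scale (horizontal axis) of the 10 genes as reported and under 5 other ways of processing the same 2 arrays (marker shapes; vertical offsets only separate them; solid line, 0; dotted lines, 2-fold). Igf1 at 1.95 with low values raised to the floor is the farthest from its reported 2.39, and each of the 9 detected genes stays on its side of 0. The brightest probe set choice repeats the reported values, because each gene had 1 probe set.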

How the data were processed

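RNA of 1 SMiG and 1 C6 culture was hybridised to Affymetrix whole-transcript arrays, per the labels' protocols. The authors deposited values for 36685 probe sets on each array, taken here as log2 expression on a scale made common by the authors. Which log base, background correction and normalization they used is not given in the sources used here. Values ran from 1.26 to 13.09, and 11.09 would be the natural log of the highest 16-bit value, so base 2 was inferred. After sorting, the columns lay a median of 0.036 apart, with medians of 4.86 (SMiG) and 4.84 (C6), so nothing more was normalized. How the authors summarised probes could change any fold.

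Of the probe sets, 18511 had 1 symbol in the platform annotation, 575 several and 17599 none. Only the first kind was used, and probe sets of a gene were averaged. Olfactory genes appear there as Or or Olr, and both set the floor. Of the receptor genes, 79 counted as detected. A difference of 1 on the log2 scale (2-fold) was counted, with no test. The 9 pathway and 6 marker lists, like the 10 genes, were chosen with earlier results of these data known. The text names the 10 genes, all measured genes of the list of other ligands, receptors, substrates and binding proteins, up to 6 genes past 2-fold in each pathway list (otherwise the 2 farthest from 0), up to 3 in each marker list with fixed defining markers, and the 2 genes nearest in difference to the lowest and the highest of the 10. Others (Stc2, Pappa, Pappa2, Ctsd, Adam9, Bmp1, Htra1, Mmp19, Adam12, Plat, Tmem219, Lrp1, M6pr, Grb10, Pik3r1, Pik3r3, Akt1, Foxo1, Pdk4, Ghr, Jak2, Top2a, Tnp1, Mospd1l1, Dcn, Lum, Tagln, Des, Sox2, Sox10, Ptpn1, Socs3, Mdm2, Socs1, Rgs5, Cspg4, Col3a1, Myh11, Col1a2, Snap25, Map2, Syp, Rbfox3, Slc17a7, P2ry12, C1qa, Tmem119, Cd68 and C1qc) were named after their values were seen. Pecam1, named as a marker, had no probe set with 1 symbol and was not analysed here.

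Promoter windows are the 250 bases before each start in the RefSeq table. The starts of Igf1, Igf1r and Igfbp7 lie inside the outer bounds of their genes, and their windows are not printed. The counting code was run on simulated arrays with known changes and the spread of the receptor genes. That checks the code only and is no support for the counts above. The alternatives were other floors, scalings, probe set choices and fold thresholds. The software was Python 3.11.15 with pandas 2.3.3, numpy 2.4.6, statsmodels 0.14.6 and matplotlib 3.10.9.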

Additional observations from a re-analysis of the deposited data

How the results depend on the processing

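The counts of 3 lower and 2 higher genes were the same with the floor at the 99th percentile, no floor, values raised to the floor, median centring, a lowess trend removed (span 0.3), quantile normalization and the brightest probe set of each gene. They were also the same with a floor from vomeronasal and Olr-named genes alone (227 genes), chosen after seeing the data. At a 1.5-fold threshold the counts were 3 lower and 3 higher, with Igfbp7 added, and 1647 and 1140 of all detected genes. At 4-fold they were 3 and 1, and 142 and 40 of all detected genes, as a higher threshold counts fewer genes. The 1 higher gene, Igf1, passes 4-fold only by a C6 value below the floor, since its fold against the floor is 3.86. Of 50 differences recomputed for the 10 genes, 49 moved by less than the receptor gene SD. The exception was Igf1, at 1.95 with its C6 value raised to the floor. Some of the 50 could not move. Each of the 10 genes had 1 probe set, so choosing the brightest left their differences and counts as reported. Raising values to the floor could not change the 7 genes above it on both arrays. Igfbp2, below the floor on both arrays, was the only one of the 10 to change sign, ranging from −0.13 to 0.10. Igfbp3 ranged from −3.64 to −3.56, Igfbp4 from −2.46 to −2.38, Igfbp5 from −3.77 to −3.51 and Igf1r from 1.10 to 1.16. Counts near the threshold moved by a few genes: adaptors and regulators had 6 lower under median centring, and 3 under quantile normalization. Proteases and inhibitors had 1 higher with the lowess trend removed. FOXO factors and targets had 3 lower under median centring, and 0 under quantile normalization. No paired analysis was possible because each group has 1 array. Genes near the floor, Igf1 in C6 and Igfbp5 in SMiG, are bounded only by it.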
